A study of Mus musculus with 6 samples.

Results

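The 10 genes described here encode chemokines and other well-known targets of NF-kappaB, namely Cxcl1, Cxcl2, Cxcl10, Ccl2, Nfkbia, Nfkbiz, Tnfaip3, Icam1, Relb and Birc3. They were taken by gene symbol from a table of 25184 genes, and all 10 had a row in it. NF-kappaB is a family of transcription factor dimers that inhibitor proteins hold in the cytoplasm until kinases, set off by receptors for cytokines or microbial products, mark those inhibitors for degradation. Among the genes then switched on are chemokines, which attract leukocytes, adhesion molecules, which hold leukocytes at the vessel wall, and feedback genes whose products shut the signal down again. In the liver these genes respond in hepatocytes as well as in Kupffer cells (the resident macrophages) and in sinusoidal endothelial cells, and isolation and plating of hepatocytes is itself known to induce many of them.

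The measurements come from primary mouse hepatocytes of 2 genotypes, with 3 libraries each. Sucnr1 fl/fl controls have the gene of the succinate receptor, Sucnr1, flanked by loxP sites on both alleles and carry no Cre. Hep-Sucnr1 KO mice carry the same floxed alleles and 1 Alb-Cre allele, in which the albumin promoter drives Cre and so limits the deletion to cells that express albumin, in the main hepatocytes. All mice were on chow, and all cells came from enzymatic digestion and a density gradient and were kept overnight in culture, so both genotypes share the isolation and the plating. The age and sex of these mice are not given in the sources used here. RNA was extracted on 2 days. Sucnr1 fl/fl replicate 1 and Hep-Sucnr1 KO replicate 3 belong to extraction day 1, and Sucnr1 fl/fl replicates 2 and 3 and Hep-Sucnr1 KO replicates 4 and 5 to day 2. The question the design puts to these genes is whether loss of the succinate receptor from hepatocytes changes their expression.

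Total counts lay between 30504248 and 38770694 per library, and a member had between 738 and 18782 counts in a library. For Sucnr1 the controls had 258, 118 and 103 counts (replicates 1, 2 and 3). The knockouts had 84, 28 and 5 (replicates 3, 4 and 5), with no overlap between the genotypes, as for 10.6% of all genes tested. The log2 fold change was −2.23 (SE 0.54, adjusted p = 0.998 by edgeR's quasi-likelihood test). The summed level of 9 hepatocyte markers was 68220 to 100600 CPM (counts scaled to the library total with TMM factors) in every library, against at most 144.9 CPM for 12 Kupffer cell markers, 105.3 CPM for 12 sinusoidal endothelial markers, 34.8 CPM for 10 stellate cell markers, 6.67 CPM for 8 neutrophil markers and 4.52 CPM for 10 lymphocyte markers. Listed markers of cholangiocytes, 7 in number, summed to 350.3 to 650.4 CPM. Spp1 (265.6 to 525.6 CPM) and Sox9 (83.1 to 122.2 CPM) made up most of that sum. None of the other listed cholangiocyte markers exceeded 2.61 CPM. In these bulk libraries fewer cells of a type and less RNA per cell cannot be told apart. On the same scale Sucnr1 stood at 2.66 CPM in knockout replicate 3, against 6.71 CPM in the control of the same day. It was at 3.40 CPM in control replicate 3, and at 0.83 and 0.15 CPM in knockout replicates 4 and 5.

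Promoter sequence from RefSeq (GRCm38.p6, the build of the counts) was at hand for 7 of the 10 genes as windows of 250 bases before and 50 bases after the transcription start, with 2 windows for Tnfaip3. Ccl2, Nfkbiz and Relb had no entry. The NF-kappaB consensus, a motif of 10 bases, was searched on both strands and overlapping matches were merged. It occurred in windows of 5 of these 7 genes, against 9.55% of 27025 genes and 8.46% of 32851 windows overall. A match is a description of letters, not evidence of binding. The stretches that hold the matches are shown because these 5 genes carry them close to the start. They are printed 5′ to 3′ on the gene's strand, up to 200 bases before the RefSeq start and without any base that GENCODE M21 places in an exon, and the capitals mark the consensus matches. They lie at chr5:90891045-90891240 (plus strand) for Cxcl1, chr5:90903699-90903870 (plus) for Cxcl2, chr5:92348890-92349089 (minus) for Cxcl10, chr10:19015411-19015547 (minus) for Tnfaip3 and chr12:55492648-55492847 (minus) for Nfkbia.
Cxcl1: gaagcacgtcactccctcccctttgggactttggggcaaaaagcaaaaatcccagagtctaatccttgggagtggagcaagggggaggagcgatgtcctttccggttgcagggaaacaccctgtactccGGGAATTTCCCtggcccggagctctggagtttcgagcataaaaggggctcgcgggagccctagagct
Cxcl2: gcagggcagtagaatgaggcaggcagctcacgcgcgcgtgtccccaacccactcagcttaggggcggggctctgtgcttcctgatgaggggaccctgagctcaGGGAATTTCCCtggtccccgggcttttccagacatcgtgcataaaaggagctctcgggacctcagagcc
Cxcl10: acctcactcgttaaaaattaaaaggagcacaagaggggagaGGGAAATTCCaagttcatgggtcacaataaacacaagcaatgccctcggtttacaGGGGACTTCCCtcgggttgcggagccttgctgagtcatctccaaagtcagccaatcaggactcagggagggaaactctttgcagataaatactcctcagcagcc
Tnfaip3: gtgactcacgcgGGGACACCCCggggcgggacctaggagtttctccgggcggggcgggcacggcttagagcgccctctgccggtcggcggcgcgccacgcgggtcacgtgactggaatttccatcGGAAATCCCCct
Nfkbia: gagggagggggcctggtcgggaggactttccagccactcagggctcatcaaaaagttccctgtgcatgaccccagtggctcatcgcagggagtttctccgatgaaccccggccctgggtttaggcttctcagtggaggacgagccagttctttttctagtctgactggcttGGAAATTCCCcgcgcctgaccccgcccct

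Cxcl1 and Cxcl2 are neighbours on chromosome 5 and share the same 11-base match, GGGAATTTCCC, at positions −71 to −61 and −97 to −87 from their starts. It opens the longest run of bases that the 2 printed stretches share, GGGAATTTCCCTGG, of 14 bases. Cxcl10 had 2 matches, at −159 to −150 and at −104 to −94. Tnfaip3 also had 2, at −125 to −116 and at −12 to −3 of its upstream start, and none at its other start. The single match of Nfkbia stood at −29 to −20, and the windows of Birc3 and Icam1 held none.

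**Figure D1:**
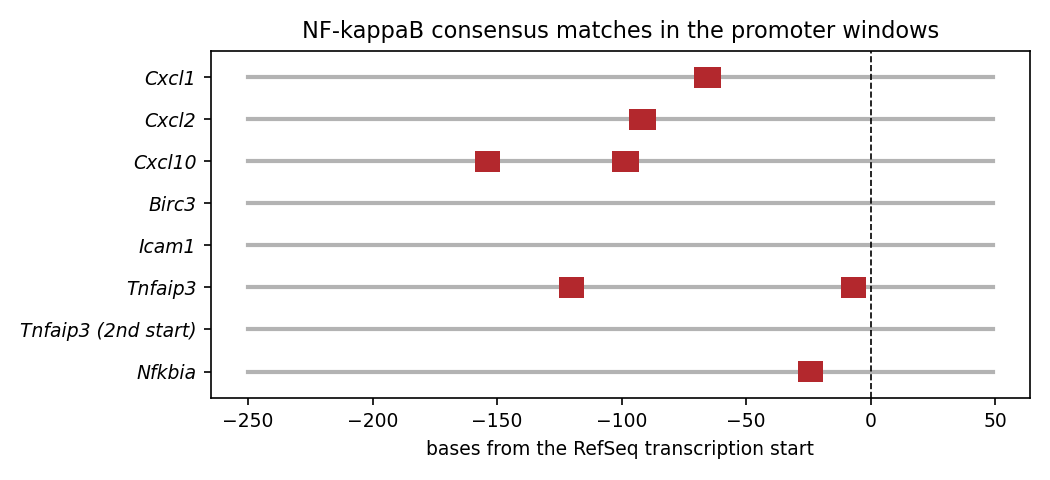
Position of NF-kappaB consensus matches (red blocks) in the 8 RefSeq promoter windows of 7 of the genes, in bases from the transcription start (dashed line), each grey line being 1 window. Cxcl1, Cxcl2 and Nfkbia have 1 match each, Cxcl10 and the upstream start of Tnfaip3 have 2, and the other 3 windows have none.

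All 10 genes passed the filter on low counts. Per kilobase of exon, the scale on which levels of different genes can be set side by side, they lay between percentiles 73.8 and 98.4 of the 15105 genes tested, with a median percentile of 96.7. Ccl2 (mean of 6 libraries, 187.3 CPM per kb), Cxcl1 (182.2), Nfkbia (168.6), Cxcl10 (147.8) and Cxcl2 (127.9) were the most abundant. The ranges of neighbours in this order overlapped among those 5, so their order is not fixed beyond the spread between libraries. Icam1 followed at 62.8 CPM per kb, below every library of Cxcl2, and then Tnfaip3 (31.7) and Nfkbiz (31.6), whose ranges overlapped. Birc3 (14.2 CPM per kb) and Relb (6.78 CPM per kb) were the lowest, and neither range overlapped that of the gene above it.

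In the 3 against 3 comparison no member passed a test between the genotypes. By edgeR's quasi-likelihood test with extraction day in the model and Benjamini-Hochberg adjustment, 0 of the 10 had an adjusted p below 0.05, beside 0% of the 15105 genes tested. At an unadjusted p below 0.05 edgeR called 0 of the 10, beside 3.72% of all genes (562), and the members' unadjusted p lay between 0.263 and 0.891. DESeq2 called 7 of all genes at an adjusted p below 0.05, none of them a member, and 435 at an unadjusted p below 0.05. In the fit 8 of the 10 log2 fold changes (Hep-Sucnr1 KO against Sucnr1 fl/fl) were positive and 2 negative, and their median was 0.18, beside 0.003 over all genes. For none of the 10 did the 2 genotypes separate without overlap, beside 10.6% of all genes. The two-sided exact permutation test of the CPM gave p between 0.2 and 0.9 for the members, where 3 against 3 cannot go below 0.1. This count of positive values rested on 1 library: without Sucnr1 fl/fl replicate 2 only 1 of the 10, Cxcl1, stayed positive, and the median was −0.062.

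Among the ligands, the neutrophil chemokines are described first. Cxcl1, a ligand of the receptor Cxcr2, stood at 368.0, 222.0 and 310.4 CPM in the controls (Sucnr1 fl/fl replicates 1, 2 and 3, the order kept from here on). In the knockouts (Hep-Sucnr1 KO replicates 3, 4 and 5, likewise) it stood at 263.3, 439.1 and 446.5 CPM. Replicates 4 and 5 of the knockout were the highest, and replicate 3 lay within the range of the controls. The log2 fold change was 0.33 (SE 0.27, adjusted p = 0.998 by edgeR). Cxcl2, which acts on the same receptor, stood at 266.9, 174.8 and 256.6 CPM in the controls and at 169.4, 325.9 and 393.6 CPM in the knockouts. Its lowest and its 2 highest libraries were thus all of the knockout, and its log2 fold change was 0.28 (SE 0.31, adjusted p = 0.998 by edgeR).

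Ccl2 attracts monocytes through the receptor Ccr2. Its levels were 180.8, 160.6 and 222.4 CPM in the controls and 93.9, 222.5 and 398.7 CPM in the knockouts, a 4.25-fold span from the lowest to the highest library, both of them knockouts. The log2 fold change of 0.16 had the largest standard error of the 10 genes, 0.39. Cxcl10, an interferon-inducible ligand of Cxcr3, stood at 166.0, 268.6 and 435.7 CPM in the controls and at 121.6, 554.6 and 450.8 CPM in the knockouts, with a log2 fold change of 0.20 (SE 0.27). Its span was the widest of the 10, at 4.56-fold, and it followed the extraction day, as described further on.

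Nfkbia, Nfkbiz and Tnfaip3 act in feedback. Nfkbia encodes the inhibitor IκBα, which is degraded on activation and made anew as a target of NF-kappaB. Its levels were 283.1, 190.5 and 269.5 CPM in the controls and 190.9, 330.5 and 364.5 CPM in the knockouts, with knockout replicate 3 next to the lowest control and the other 2 above every control (log2 fold change 0.21, SE 0.27). Tnfaip3 is the gene of the ubiquitin-editing enzyme A20, which restrains signalling upstream of the kinases. It stood at 239.7, 183.7 and 217.7 CPM in the controls and at 168.0, 295.6 and 270.7 CPM in the knockouts (log2 fold change 0.16, SE 0.22). Here knockout replicate 3 was the lowest of all libraries, and the other 2 knockouts again lay above every control. Nfkbiz encodes the nuclear protein IκBζ, which works with NF-kappaB on a subset of its targets. It stood at 210.4, 126.3 and 158.3 CPM in the controls and at 116.5, 149.9 and 190.1 CPM in the knockouts, and here a control, replicate 1, was the highest (log2 fold change −0.11, SE 0.25).

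Icam1 encodes an adhesion molecule that binds integrins of leukocytes. It was at 277.4, 239.1 and 283.7 CPM in the controls and at 185.9, 333.1 and 323.6 CPM in the knockouts, and its log2 fold change was 0.03 (SE 0.21). Birc3, the gene of the ubiquitin ligase cIAP2, stood at 66.4, 48.2 and 79.0 CPM in the controls and at 53.8, 89.1 and 90.1 CPM in the knockouts (log2 fold change 0.23, SE 0.23). Both had their 2 highest libraries in knockout replicates 4 and 5. Relb encodes a subunit of the non-canonical dimers. It was at 27.4, 27.4 and 26.6 CPM in the controls and at 23.4, 25.9 and 27.3 CPM in the knockouts, a 1.17-fold span over all 6 libraries, and its log2 fold change was −0.09 (SE 0.11).

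**Figure D2:**
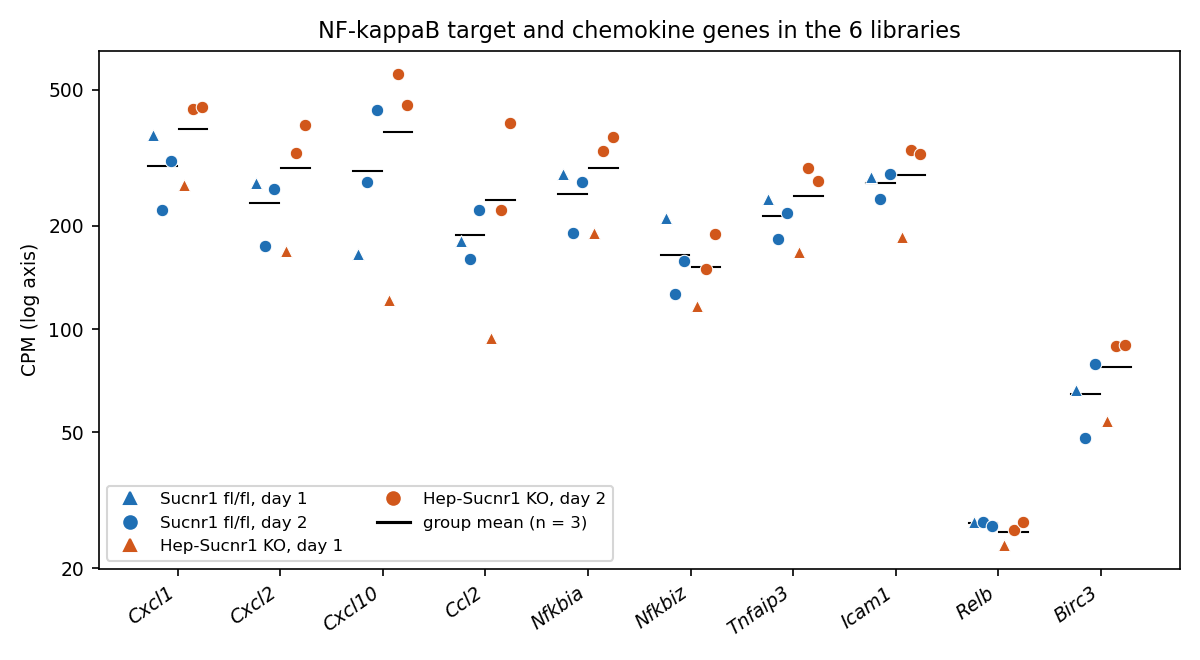
Level of each of the 10 genes in each library, in CPM on a log axis, for Sucnr1 fl/fl (blue) and Hep-Sucnr1 KO (orange) on extraction day 1 (triangles) and day 2 (circles), with group means of 3 libraries (black lines). The day 1 knockout lies low and the day 2 knockouts lie high for most genes, with means of 300.2 and 383.0 CPM for Cxcl1 and of 27.1 and 25.5 CPM for Relb.

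The 2 extraction days gave opposite orders of the genotypes. Day 1, where a genotype is a single library and there is no replicate check, had the knockout lower for all 10 genes, beside 48.8% of all genes. The day 1 log2 differences ran from −0.95 for Ccl2 to −0.23 for Relb, with a median of −0.54, beside 0.01 over all genes. On day 2, with 2 libraries of each genotype, 9 of the 10 fitted differences were positive, from 0.26 for Nfkbiz to 0.74 for Cxcl2, and that of Relb was −0.02. Their median was 0.51 (0.008 over all genes). Both day 2 knockouts lay above both day 2 controls for 8 of the 10 genes, beside 15% of all genes, the exceptions being Nfkbiz and Relb. For Ccl2 this order was close to a tie, at 222.5 CPM in knockout replicate 4 and 222.4 CPM in control replicate 3. Those same 8 genes combined the lower day 1 knockout with the higher day 2 knockouts, beside 5.58% of all genes, and 0 of the 10 showed the mirror image.

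Within day 2 alone, 4 of the 10 genes were higher in the knockout at an unadjusted p below 0.05 in edgeR's fit with a separate genotype term for each day, beside 1.21% of all genes. They were Cxcl1 (log2 difference 0.73, SE 0.21), Cxcl2 (0.74, SE 0.24), Nfkbia (0.60, SE 0.22) and Tnfaip3 (0.50, SE 0.17), and the adjusted p was 0.9995 for each. On the CPM scale the ratio of the day 2 means, knockout to control, was 1.66 for Cxcl1, 1.67 for Cxcl2, 1.62 for Ccl2, 1.51 for Nfkbia, 1.43 for Cxcl10, 1.41 for Tnfaip3 and for Birc3, 1.26 for Icam1, 1.20 for Nfkbiz and 0.986 for Relb. The corresponding ratios on day 1, each of 2 single libraries, were all below 1, from 0.519 for Ccl2 and 0.554 for Nfkbiz to 0.811 for Birc3 and 0.854 for Relb.

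The difference between the days was then tested itself, as the interaction of genotype and day. It was positive for all 10 genes, with a median log2 difference of 1.06, beside 0.004 over all genes. It was largest for Ccl2 at 1.64 (SE 0.55), followed by Cxcl2 at 1.39 (SE 0.41), Cxcl1 at 1.22 (SE 0.37), Nfkbia at 1.16 (SE 0.38) and Nfkbiz at 1.11 (SE 0.35). For 7 of the 10 the unadjusted p was below 0.05, beside 3.69% of all genes in either direction and 2.68% in the positive one, and the exceptions were Cxcl10, Birc3 and Relb. After adjustment by edgeR over all genes, 0 of the 10 stayed below 0.05, beside 0% of all genes (557 at an unadjusted p below 0.05, and 4 at an adjusted p below 0.05 by DESeq2, again with no member). The adjusted p of every member was 0.9997 by edgeR and at the least 0.421 by DESeq2, for Cxcl2. Over the other settings the lowest was 0.284, for Ccl2 by edgeR without Hep-Sucnr1 KO replicate 4. The interaction thus did not pass a threshold over the genome, and it leans on the 2 single libraries of day 1. Its p values measure no spread between mice of day 1. Over the alternatives that left those 2 in place it was positive for all 10 genes each time.

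**Figure D3:**
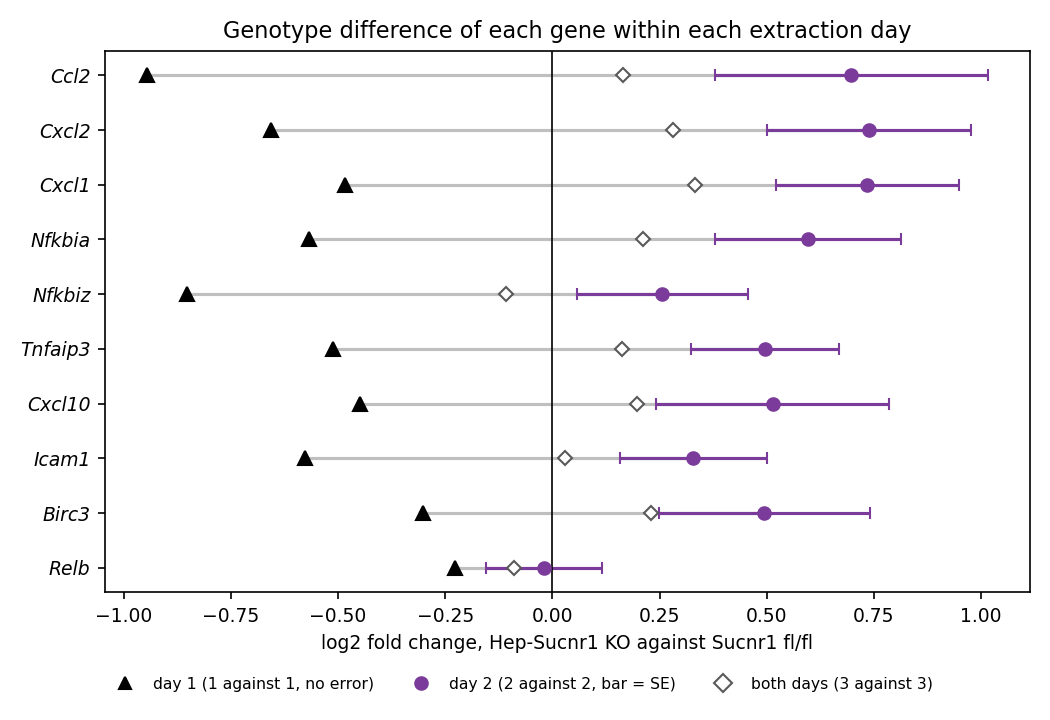
Genotype difference (log2, knockout over control) of each gene on extraction day 1 (triangles, 1 library against 1, no error), on day 2 (circles, 2 against 2, bars showing the SE of the fit) and over both days (diamonds, 3 against 3), with genes ordered by the difference between the days. All 10 triangles lie below 0, and all circles but that of Relb (−0.02) lie above it.

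Library by library, knockout replicate 3 was the lowest of the 6 for 7 of the 10 genes, beside 16.3% of all genes, and control replicate 2 was the lowest for the other 3, which were Cxcl1, Nfkbia and Birc3. The median deviation of the 10 genes from their 6-library means was −0.44 in knockout replicate 3 and −0.29 in control replicate 2 on the log2 scale, close to 0 in control replicates 1 (0.07) and 3 (0.03), and 0.35 and 0.41 in knockout replicates 4 and 5. The 8 genes with both day 2 knockouts above both day 2 controls also had their 2 highest libraries in those knockouts. The share of all genes with this order was not counted, so it is no separate result. Nfkbiz was highest in control replicate 1, and Relb was marginally highest in control replicate 2.

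Markers of another liver cell type moved alongside. The 12 Kupffer cell markers summed to 44.3, 39.8 and 144.9 CPM in control replicates 1, 2 and 3 and to 8.86, 126.4 and 90.7 CPM in knockout replicates 3, 4 and 5. Knockout replicate 3 was the lowest library for all 12, none of which was at 0 in any library, and its sum was 4.99-fold below that of the control of the same day. The 2 libraries in which the 10 genes were lowest were thus also the lowest in Kupffer cell markers, with control replicate 1 close to control replicate 2. Control replicate 3, with the highest sum of these markers, lay near the mean for the 10 genes and below knockout replicates 4 and 5. Sinusoidal endothelial markers summed to 61.2 to 105.3 CPM in the controls and to 38.7 to 71.2 CPM in the knockouts. The sum was lowest in knockout replicate 3, but only 7 of these 12 markers were lowest there. Defining markers of neutrophils (Ly6g, Retnlg, Camp, Ngp and Mpo) and of lymphocytes (Cd3g, Ms4a1, Nkg7, Klrb1c and Gzma) were at 0 in at least 1 library. The part of the Kupffer cell and endothelial markers in the pattern of the 10 genes was not tested. On day 1 the library names of the genotypes also come from different number ranges, and there the range and the genotype cannot be told apart. The labels do not name these ranges as a batch, and the study's methods give a single index set for the libraries.

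**Figure D4:**
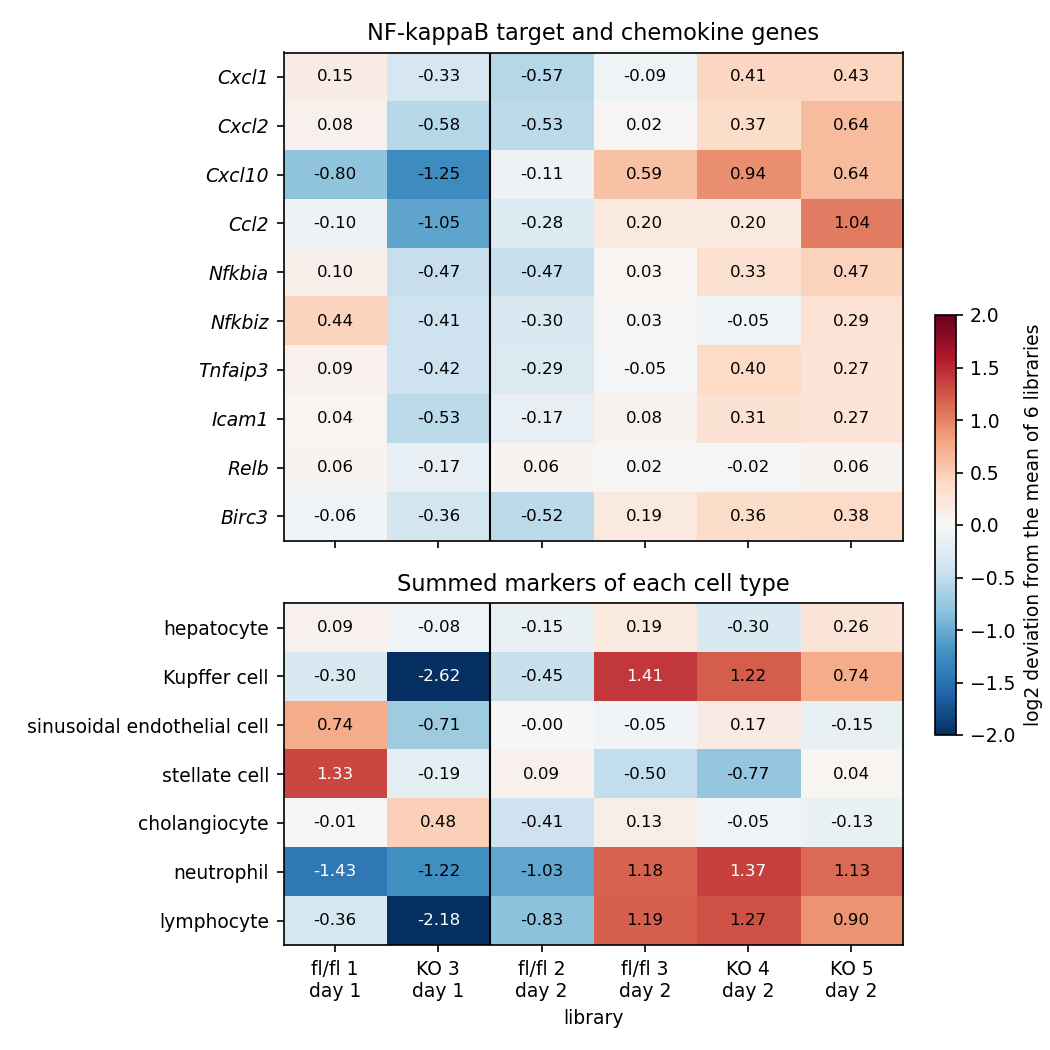
Log2 deviation from the mean of the 6 libraries for each of the 10 genes (top) and for the summed CPM of the markers of 7 cell types (bottom), with the libraries of day 1 left of the line, those of day 2 right of it, and colours saturating at 2 in either direction. Knockout replicate 3 is low for the 10 genes (Ccl2 −1.05, Cxcl10 −1.25) and for Kupffer cell markers (−2.62), and control replicate 3 is high for Kupffer cell markers (1.41) with the 10 genes near 0 apart from Cxcl10 (0.59).

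Cxcl10 had the largest difference between the extraction days. It stood at 166.0 and 121.6 CPM in the day 1 libraries and at 268.6 to 554.6 CPM in the day 2 libraries, and was the only one of the 10 genes for which every day 2 library lay above every day 1 library, beside 8.51% of all genes. Its log2 difference, day 2 against day 1, was 1.54 (SE 0.31). The unadjusted p was 0.00164, and Cxcl10 was the only one of the 10 genes below 0.05, beside 7.49% of all genes. By edgeR its adjusted p was 0.393, and 0 of the 10 genes passed for extraction day, beside 0% of all genes (1132 at an unadjusted p below 0.05). DESeq2 gave a log2 difference of 1.52 with an adjusted p of 9.12e-05, one of 225 genes that it called for the day, and edgeR without the filter on low counts gave an adjusted p of 0.00932, so the call depends on the tool and on the filter. The Kupffer cell sums given above (44.3 and 8.86 CPM on day 1, 39.8 to 144.9 CPM on day 2) overlapped between the days. The sums of the 8 neutrophil markers did not, at 0.962 and 1.11 CPM on day 1 and 1.26, 5.87, 6.67 and 5.65 CPM on day 2 (control replicates 2 and 3, then knockout replicates 4 and 5), with 5 of the 8 markers at 0 in at least 1 library. Their part in the day difference of Cxcl10 was not tested. With each library left out in turn the day difference of Cxcl10 stayed positive, and was lowest at 1.04 (knockout replicate 3 left out) and highest at 2.05 (control replicate 1 left out). Ccl2 came next, with a day difference of 0.82 (SE 0.43), and the remaining 8 genes lay between −0.05 for Nfkbiz and 0.34 for Icam1. These values hung on the 2 day 1 libraries. Without Hep-Sucnr1 KO replicate 3 the difference of Ccl2 was 0.04 and the other 8 lay between −0.60 for Nfkbiz and −0.06 for Relb, and without Sucnr1 fl/fl replicate 1 that of Ccl2 was 1.73 and the other 8 lay between 0.19 for Relb and 1.09 for Cxcl2. The median over the 10 genes was 0.28, beside 0.02 over all genes.

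The wider pathway was described with a list of 140 further genes in 9 roles, of which 132 were tested, 7 were below the filter and 1, Ccl17, had no row. For genotype 0 of the 132 passed an adjusted p of 0.05 by edgeR, and 5 were higher and 0 lower in the knockout at an unadjusted p below 0.05, a share of 3.79% against 3.72% of all genes. The log2 fold changes were positive for 63 and negative for 69, with a median of −0.005. Of the 5 genes, Cd14, a co-receptor for lipopolysaccharide, stood at 188.0, 279.8 and 335.1 CPM in the controls and at 336.9, 423.9 and 405.7 CPM in the knockouts (log2 fold change 0.57, SE 0.15, unadjusted p = 0.00663, adjusted p = 0.998 by edgeR). The groups did not overlap, although the lowest knockout and the highest control were nearly equal. Lcn2, the gene of an iron-scavenging acute phase protein, was at 349.2, 422.8 and 664.8 CPM against 565.3, 792.1 and 767.2 CPM, with overlap (0.58, SE 0.19). Tifa, an adaptor of innate signalling, stood at 42.9 to 55.1 CPM in the controls and at 55.8 to 92.1 CPM in the knockouts (0.50, SE 0.18). The chemokine genes Cxcl14 (0.48 to 0.66 against 1.03 to 2.85 CPM) and Cx3cl1 (0.13 to 0.15 against 0.19 to 0.38 CPM) were the other 2, both at low levels. Over the list, groups did not overlap for 9 genes (6 with the knockout above and 3 with it below), or 6.82% of those tested, beside 10.6% of all genes.

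On day 1 the log2 difference was 0.84 for Cd14, 0.69 for Lcn2, 0.38 for Tifa, 2.24 for Cxcl14 and 0.53 for Cx3cl1, positive for each. The 10 genes had the other order on day 1. These 5 genes were picked by their genotype p over both days, which a gene with opposite orders on the days can hardly reach. The contrast with the 10 genes was thus in large part set by that choice. Of the most abundant gene of each role, Cd14 is given above. Among the others the largest difference was that of the interferon-induced chemokine gene Cxcl9 (log2 fold change 1.00, SE 0.44, unadjusted p = 0.0568 and adjusted p = 0.998 by edgeR). Complement C3, the most abundant gene of the list, lay between 5665 and 7970 CPM in all 6 libraries (0.08, SE 0.20), and Rela, the main activating subunit, between 271.8 and 400.9 CPM (−0.21, SE 0.18). The values were −0.10 (SE 0.18) for Zfp36, whose product destabilises cytokine mRNA, −0.10 (SE 0.13) for the adaptor kinase gene Irak2, 0.003 (SE 0.15) for the kinase gene Ikbke, −0.09 (SE 0.27) for the alarmin gene Il33 and −0.01 (SE 0.48) for the chemokine scavenger gene Ackr1.

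Between the days the medians of the list moved the same way as those of the 10 genes. Over the 132 genes the median log2 difference of the genotypes was −0.35 on day 1 and 0.20 on day 2. The interaction was positive for 100 and negative for 32 of them, with a median of 0.44, beside 0.004 over all genes. An unadjusted interaction p below 0.05 was reached by 22 genes in the positive direction, a share of 16.7% beside 2.68% of all genes, and by 0 in the negative one, with an adjusted p below 0.05 for 0. Both day 2 knockouts above both controls with a lower day 1 knockout was seen for 21 genes (15.9%), beside 5.58% of all genes. Of the 30 further target genes, 10 passed the unadjusted threshold of the interaction, and their median interaction was 0.82. Of the 14 cytokine genes 3 passed it and all 14 were positive, with a median of 1.65. By contrast 0 of the 10 kinase genes passed it, with 3 positive and 7 negative and a median of −0.07, and of the 16 adaptor and ubiquitin ligase genes 1 did (median 0.14). Of the 19 other chemokine genes 2 passed it (median 0.67), of the 17 inhibitor and feedback genes 3 (0.42), of the 18 upstream receptor genes 2 (0.38), of the 4 other subunit genes 1 (0.35) and of the 4 tested receptor genes for the chemokines 0 (1.40). Extraction day had an unadjusted p below 0.05 for 38 of the 132, or 28.8%, beside 7.49% of all genes, 36 of them higher on day 2, and an adjusted p below 0.05 for 0. Some genes of the list lay near the floor. Tnfsf15, 1 of the 3 cytokine genes that passed for the interaction, was at 0 to 0.39 CPM. Tnfaip8l2, an inhibitor gene that passed, was at 0 to 0.74 CPM, and the receptor gene Ccr2 at 0 to 1.21 CPM. Each of these was at 0 in knockout replicate 3, and the part of such genes in the medians was not tested. Whether the roles differ from each other was not tested.

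Named after their values were seen, 3 genes of moderate level show the pattern. Rel, the gene of the subunit c-Rel, stood at 24.6, 15.7 and 19.6 CPM in the controls and at 13.5, 23.8 and 23.0 CPM in the knockouts (interaction 1.27, SE 0.29). Zc3h12a, whose product Regnase-1 degrades cytokine mRNA, stood at 49.3, 37.0 and 45.9 CPM against 38.6, 70.0 and 66.6 CPM (interaction 1.07, SE 0.28). Gadd45b, a stress-response gene, was at 133.7, 101.9 and 82.7 CPM against 77.7, 118.5 and 110.3 CPM (interaction 1.09, SE 0.29). The unadjusted p of the interaction was 0.00487, 0.00832 and 0.00926, with an adjusted p of 0.9997 by edgeR for all 3.

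**Figure D5:**
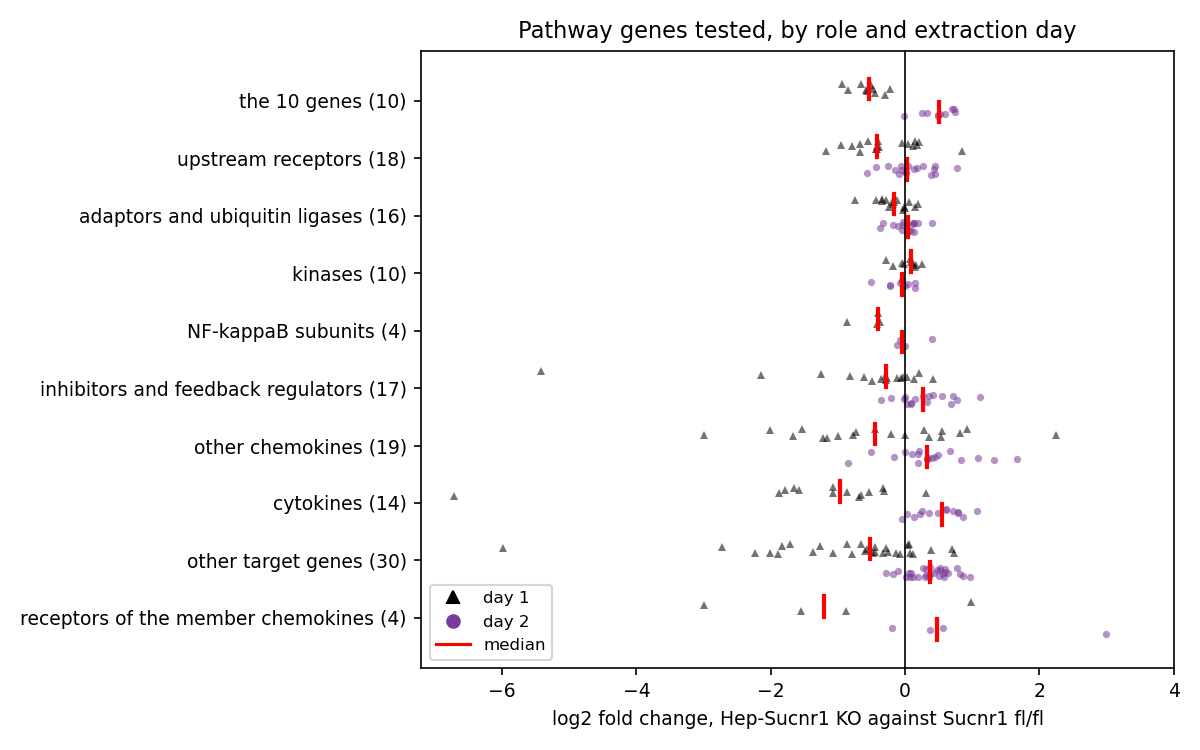
Genotype difference (log2, knockout over control) on extraction day 1 (black triangles, upper row of each group) and on day 2 (purple circles, lower row) for the 10 genes and for the 132 pathway genes tested, 1 point per gene, grouped by role with the number of genes in brackets, and with the median as a red bar. Medians lie left of 0 on day 1 and right of it on day 2 for the 10 genes (−0.54 and 0.51), cytokines (−0.97 and 0.55) and other target genes (−0.52 and 0.37), and close to 0 on both days for kinases (0.08 and −0.05).

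Over the 6 libraries the mean standardized log2 CPM of the 10 genes was matched most closely by Map3k8 (Pearson's r = 0.990), Tnfrsf1b (0.989), Atp10d (0.985), Mgat4a (0.983) and Hist1h4c (0.979), a description over 6 libraries of 1 experiment. Map3k8 encodes a kinase of the inflammatory MAP kinase pathway and ran from 5.16 to 11.3 CPM. Tnfrsf1b encodes a receptor for tumour necrosis factor and ran from 55.4 to 91.6 CPM. Both were lowest in knockout replicate 3 and highest in knockout replicate 5. The other 3 were at or below 2.19 CPM. Among the 10 genes themselves, each also part of the mean, the same measure was highest for Cxcl2 (0.977), Nfkbia (0.974) and Icam1 (0.974) and lowest for Cxcl10 (0.770) and Relb (0.614).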

How the data were processed

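Poly(A) RNA of 6 primary hepatocyte cultures was sequenced as stranded libraries. Per the labels and the study's methods, the authors trimmed reads with Trim Galore 0.6.7, aligned them with STAR 2.7.10a to GRCm38 and counted pairs by strand with featureCounts on the Ensembl annotation. They deposited raw counts per gene. How pairs that match several genes were counted is not given in the sources used here, so values of Cxcl1 and Cxcl2, which are similar in sequence, could share reads. Of 25184 genes 54 had no symbol.

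The filter kept 15105 genes whose normalized counts averaged more than 5. edgeR 4.0.16 (R 4.3.3) fitted extraction day and genotype, and their interaction, by quasi-likelihood on TMM-scaled counts, with Benjamini-Hochberg adjustment over all genes. The SE is the log2 difference over the root of F. DESeq2 1.42.0, which the authors used, was an alternative. Simulated data with 200 changed genes were used to test the script. Exon lengths and coordinates are from GENCODE M21, and log2 CPM used a prior count of 2. The genes named outside the 10 were those of the pathway list with an unadjusted p below 0.05 for genotype, the most abundant per role, and the 5 genes most like the 10. Rel, Zc3h12a and Gadd45b fall outside this rule and were chosen after their interaction values were seen. Tnfsf15, Tnfaip8l2 and Ccr2 also fall outside it and were named, after their values were seen, for their low levels. Ccl17 was named for having no row. The members and lists were chosen with earlier results of these data known. Each library is 1 mouse per the series' design, so p values of the fit without the interaction measure the spread between these 6 mice. In the fit with the interaction each genotype has 1 library on day 1. The p values of that fit, also those within day 2, take their spread from the 4 libraries of day 2. They measure none between mice of day 1.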

Additional observations from a re-analysis of the deposited data

Results flagged for a closer look

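For 8 of the 10 genes the knockout lay below the control on day 1 and both knockouts above both controls on day 2, beside 5.58% of all genes. The fitted differences of Nfkbiz also changed sign, from −0.85 on day 1 to 0.26 on day 2, a difference of 1.11. Its day 2 libraries overlapped between the genotypes, so it is not among the 8. The values that follow are for those 8 genes, chosen by this order. The difference of the log2 fold changes, day 2 minus day 1, was 1.22 for Cxcl1, 1.39 for Cxcl2, 0.96 for Cxcl10, 1.64 for Ccl2, 1.16 for Nfkbia, 1.01 for Tnfaip3, 0.91 for Icam1 and 0.80 for Birc3. Its unadjusted p by edgeR's quasi-likelihood test was 0.0168 for Cxcl1, 0.0151 for Cxcl2, 0.0254 for Ccl2, 0.0216 for Nfkbia, 0.0152 for Tnfaip3 and 0.0230 for Icam1, and 0.0877 for Cxcl10 and 0.112 for Birc3. The adjusted p was 0.9997 for each of the 8. Day 1 has 1 library of each genotype, and Kupffer cell markers were lowest in the same day 1 knockout (8.86 CPM against 44.3 CPM in the control of that day). Their part in the difference was not tested.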

How the results depend on the processing

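Under 15 other settings no gene of the 10 passed an adjusted p of 0.05 for genotype. DESeq2 called 7 genes over the table and 1 of the 10 (Cxcl10) for extraction day, as did edgeR without the filter (1). The pathway genes with an unadjusted p below 0.05 for genotype by edgeR, 5 in the report, changed in number with the setting. They numbered 8 with library size alone, 9 without the filter and 8 on day 2 alone. With the number range of the library names as a further term there were 3. With 1 library left out there were 3 to 14 (14 without Hep-Sucnr1 KO replicate 5).

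On day 2 alone the median log2 fold change of the 10 genes was 0.499, that of Nfkbiz turned to 0.25, and 4 genes had an unadjusted p below 0.05. With 1 library left out the number of genes higher in the knockout ran from 1 to 9, their median from −0.062 (without Sucnr1 fl/fl replicate 2) to 0.50 (without Sucnr1 fl/fl replicate 1), and the number with an unadjusted p below 0.05 from 0 to 4 (4 without either day 1 library). Single log2 fold changes ran from −0.32 to 0.26 for Nfkbiz, −0.016 to 0.74 for Cxcl2, −0.079 to 0.51 for Cxcl10, −0.26 to 0.70 for Ccl2, −0.044 to 0.59 for Nfkbia, −0.012 to 0.50 for Tnfaip3, −0.13 to 0.33 for Icam1 and −0.029 to 0.49 for Birc3. Without Sucnr1 fl/fl replicate 2 Cxcl2, Cxcl10, Ccl2, Nfkbia, Tnfaip3, Icam1 and Birc3 turned negative, and so did Ccl2 and Icam1 without Hep-Sucnr1 KO replicate 5 and Icam1 without Hep-Sucnr1 KO replicate 4. Nfkbiz turned positive without either day 1 library. With only 3 libraries a genotype, 1 culture can thus set the sign of these differences; the cause was not tested.

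For the interaction of genotype and day, 10 alternatives were chosen after seeing the data. It stayed positive for all 10 genes in each, with a median of 0.91 to 1.32 (1.32 without Sucnr1 fl/fl replicate 3) and 6 to 9 genes at an unadjusted p below 0.05. A day 1 library could not be left out there. No paired analysis was possible because the labels do not pair the mice.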
